A study of Mus musculus with 21 samples.

Results

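Adipocyte differentiation genes, a set of 37 genes chosen by symbol with earlier results of these data known, were followed through 3 mouse cell lines. All 37 symbols matched 1 row each of the 48440 genes in the deposited count table, with Pref1 found under its current symbol Dlk1. The groups were 3T3-L1 with overexpression of Esrp2-as (2 replicates) and 3T3-L1 with an empty vector (2), M27H4 with overexpression of Esrp2-as (3) and M27H4 with an empty vector (3), and M6 with LNA gapmer knockdown of Esrp2-as (2) and its control (2), which the labels also call an empty vector control. Esrp2-as is a long noncoding RNA antisense to Esrp2, a gene for an epithelial splicing regulator. 3T3-L1 is a preadipocyte line, and M6 and M27H4 are tumour lines from the mammary glands of C3(1)-driven SV40 TAg mice. All cells were grown in DMEM with 10% serum, and the labels name no adipogenic cocktail, so 3T3-L1 was measured as labelled, as preadipocytes. Each line is a single line, and the labels do not say whether overexpressing cells were clones or pools. The replicates are labelled biological without further origin, so p values measure the spread between replicate libraries within groups. That spread was estimated for each gene over all 6 groups together. A comparison within 1 line thus also carries the spread of the other lines. In these bulk libraries fewer cells that express a gene and less RNA per cell cannot be told apart.

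Adipogenesis runs as a cascade. Cebpb and Cebpd are induced early and turn on Pparg and Cebpa, which maintain each other and switch on genes for lipid uptake, triglyceride synthesis, the lipid droplet coat and adipokines. Before that step preadipocytes express Dlk1, a membrane ligand that holds back differentiation, and commitment factors such as Zfp423, with Zfp521 as its antagonist and Ebf1 and Ebf2 as DNA-binding partners of Pparg. Pparg has upstream starts, used in many cell types, and a downstream start that makes the fat-selective Pparg2 protein.

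The promoters of Pparg, Dlk1 and Adipoq are shown because Pparg and Dlk1 separated the lines and Adipoq, the gene of the fat hormone adiponectin, was almost silent in all of them. They are the 250 bases before the RefSeq starts (GRCm38.p6), 5′ to 3′ on the gene's strand, which is the plus strand for all of these genes. RefSeq windows were at hand for 26 of the 37 genes. Capitals mark 5 motifs found on either strand and allowed to overlap: TTGCGCAA (a C/EBP site), CCAAT, CCCNNGGG (the core of an EBF site), GGGCGG (a GC box) and TATAAA. Of 32851 mouse windows of this length, 0.164% held TTGCGCAA, 33.8% CCAAT, 11.8% CCCNNGGG, 32.7% GGGCGG and 12.4% TATAAA.
Pparg, first upstream start, chr6:115360894-115361143: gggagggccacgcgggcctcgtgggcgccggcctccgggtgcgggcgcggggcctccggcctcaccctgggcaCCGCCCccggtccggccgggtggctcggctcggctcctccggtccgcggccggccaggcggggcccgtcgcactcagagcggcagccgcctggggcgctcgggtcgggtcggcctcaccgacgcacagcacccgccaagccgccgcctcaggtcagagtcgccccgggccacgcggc
Pparg, second upstream start, chr6:115362099-115362348: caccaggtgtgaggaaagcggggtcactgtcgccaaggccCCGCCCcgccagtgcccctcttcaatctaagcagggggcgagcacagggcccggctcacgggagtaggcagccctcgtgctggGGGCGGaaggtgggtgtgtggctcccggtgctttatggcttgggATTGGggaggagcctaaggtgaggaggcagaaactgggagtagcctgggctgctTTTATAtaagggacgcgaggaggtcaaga
Pparg, downstream start, chr6:115421816-115422065: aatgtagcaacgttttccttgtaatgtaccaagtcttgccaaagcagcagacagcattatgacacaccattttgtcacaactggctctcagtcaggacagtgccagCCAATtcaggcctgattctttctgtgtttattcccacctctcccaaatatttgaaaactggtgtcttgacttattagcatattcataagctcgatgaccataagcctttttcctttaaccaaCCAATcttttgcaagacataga
Dlk1, chr12:109452573-109452822: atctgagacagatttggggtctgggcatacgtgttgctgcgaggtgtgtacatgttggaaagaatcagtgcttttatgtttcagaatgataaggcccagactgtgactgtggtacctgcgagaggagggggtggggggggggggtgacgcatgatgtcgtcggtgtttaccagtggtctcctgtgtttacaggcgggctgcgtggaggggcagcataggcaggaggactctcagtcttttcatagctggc
Adipoq, chr16:23146286-23146535: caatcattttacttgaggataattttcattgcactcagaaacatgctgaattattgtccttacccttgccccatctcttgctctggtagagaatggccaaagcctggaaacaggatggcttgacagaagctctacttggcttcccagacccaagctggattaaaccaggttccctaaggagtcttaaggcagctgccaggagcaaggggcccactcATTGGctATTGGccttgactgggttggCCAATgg
The first upstream Pparg window held 1 GC box, the second held 2 GC boxes, 1 CCAAT and 1 TATAAA, and the downstream window held 2 CCAAT and no GC box. The Adipoq window held 3 CCAAT, and none of the 5 motifs was found in the Dlk1 window. A match describes the letters only and is not a measured binding site.

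The libraries held 34892461 to 328493417 counts per replicate, with 15014 to 19971 genes at 10 counts or more. Esrp2-as (1810019D21Rik) was at 35.5 to 45.8 CPM in 3T3-L1 overexpression, against 0.25 to 0.355 CPM in control (adjusted p = 0.00258), at 15.9 to 65.9 CPM in M27H4 overexpression, against 0.731 to 1.25 CPM in control (0.00152), and at 0.527 to 0.851 CPM in M6 knockdown, against 2.42 to 2.96 CPM in control (0.363). Levels are CPM, the count scaled to the library size after its TMM factor. Of 12 fibroblast or preadipocyte markers, 11 averaged at least 1 CPM in 3T3-L1 control, 10 in M27H4 control and 7 in M6 control, and their summed level ran from 6444 to 7275, from 979.5 to 1181 and from 92.3 to 104.2 CPM in that order. Of 12 mammary epithelial markers all averaged at least 1 CPM in M6 control, with sums of 5036 to 7268 CPM, while 9 did in M27H4 control (165.7 to 304.6) and 9 in 3T3-L1 control (30.8 to 39.3). The label of 3T3-L1 therefore fitted its marker levels, and M27H4, though of mammary tumour origin, held most epithelial markers at a low level. Cdh1 (134.3 CPM ± 29.9) and Krt18 (59.4 ± 20.8) were the highest of the 12 in M27H4 control. Some had an SD near the mean, such as Epcam (4.31 ± 4.06) and Cldn3 (1.31 ± 1.2), against 729.1 and 217.7 CPM in M6 control. Epcam averaged 3.07 CPM in 3T3-L1 control. The part of shared run codes in these low levels was not tested. The 6 immune markers summed to at most 13.7 CPM in any library, and the 5 endothelial markers summed to 22.3 to 32.2 CPM in M27H4 control and to at most 2.05 CPM in 3T3-L1 and M6. In M27H4 control a single gene made up most of the mean level of each list. These were Kdr (26.8 CPM ± 5.07) for the endothelial and Pdgfra (865.7 ± 84.6) for the fibroblast markers. For the mammary epithelial markers it was Cdh1, and for the immune markers Cd68 (1.76 ± 0.227). The comparisons of lines moved with these marker lists and in part with the run code. The part of the marker lists in the results was not tested, and values by run code are given beside the genes concerned.

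**Figure D1:**
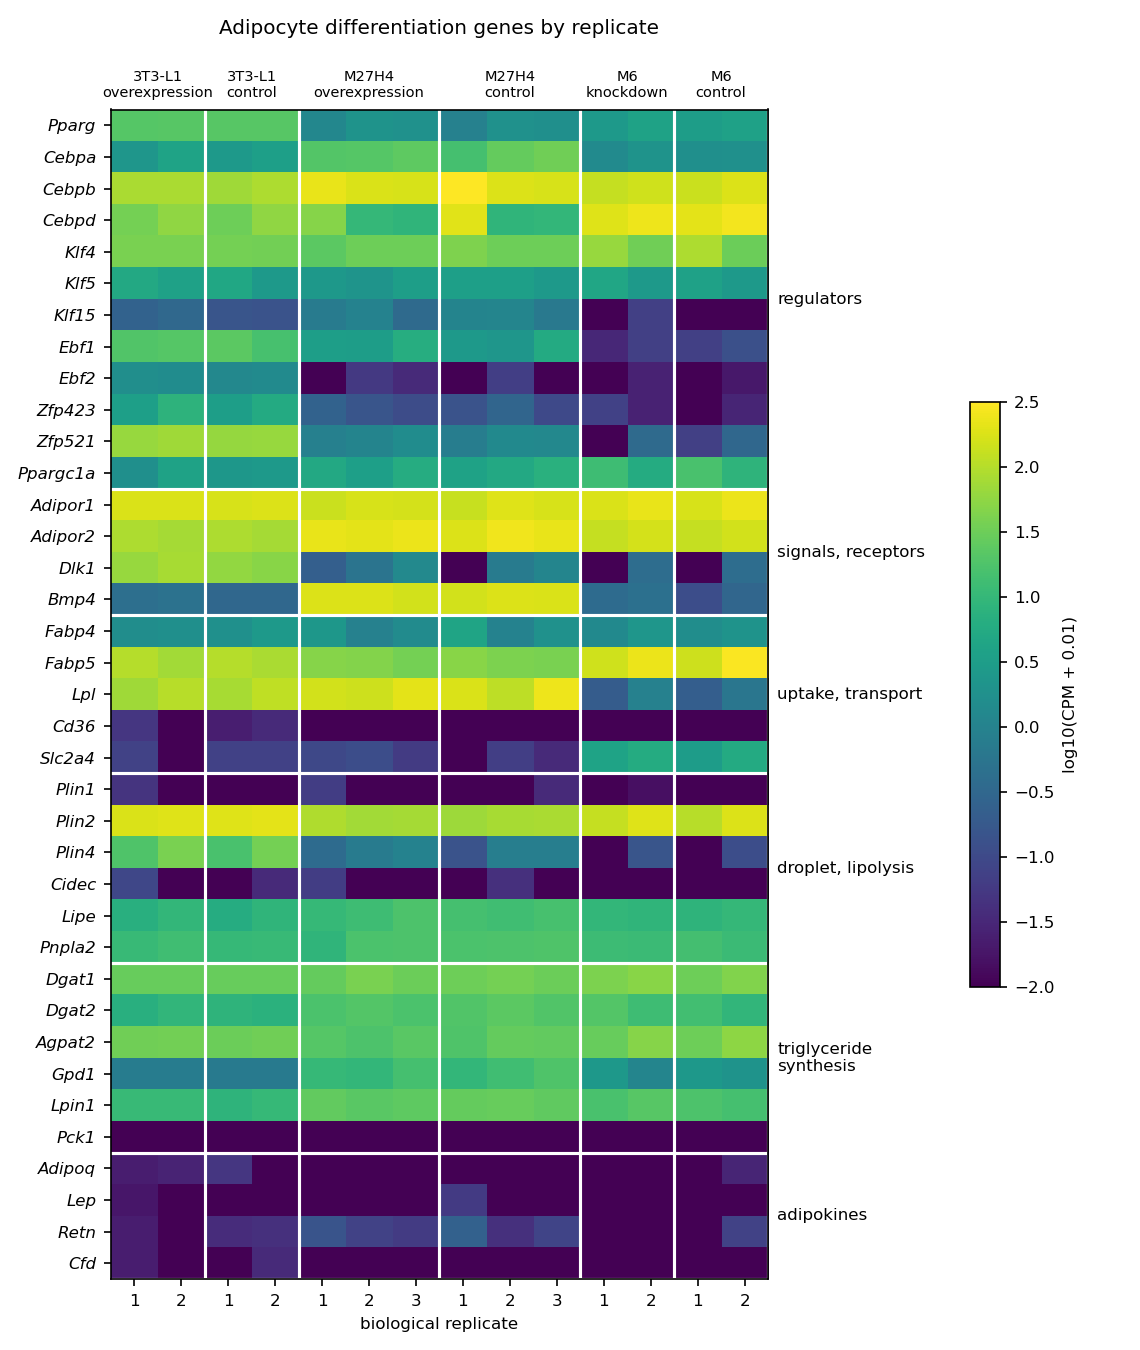
Level of each of the 37 genes in each of the 14 replicates, as log10(CPM + 0.01), with genes grouped by role and replicates by group. Pparg, Dlk1, Zfp521 and Plin4 are brighter in the 4 3T3-L1 libraries, Bmp4 and Cebpa in the 6 M27H4 libraries, Slc2a4 in the 4 M6 libraries, and Pck1, Adipoq, Lep and Cfd are dark throughout.

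Adipoq, Lep, Cfd, Plin1, Cidec, Cd36 and Pck1 were near or at 0 in all 3 lines. Of the 37 genes 30 passed the filter on low counts and 7 did not. Pck1, the gene of a glyceroneogenic enzyme, had 0 counts in all 14 libraries, which by counting error allows at most 0.00913 to 0.086 CPM depending on the library. Adipoq had 20 counts over all libraries and no more than 0.041 CPM in any. Lep, the gene of leptin, had 5 counts in all, and Cfd, the gene of adipsin, had 6, all of them in 3T3-L1. Cd36, a fatty acid transporter, had 16 counts, also all in 3T3-L1, Plin1, the main droplet coat protein of mature adipocytes, had 15, and Cidec, which fuses lipid droplets, had 30, 22 of them in 3T3-L1. None of these 7 reached 0.08 CPM in a library, and what they had was scattered over at most 4 libraries a gene. Retn, the gene of resistin, passed the filter but stayed at or below 0.244 CPM. Fabp4, the fatty acid carrier that is among the most abundant transcripts of fat cells, was low in every line, at 2.28 CPM ± 0.648 (SD, n = 2) in 3T3-L1 control, 2.35 ± 1.68 (n = 3) in M27H4 control and 1.82 ± 0.351 (n = 2) in M6 control. In 3T3-L1 control its log2 difference from the mean of the tumour lines was 0.14, with a 95% interval from -0.93 to 1.2 (adjusted p = 0.856), and it was -0.18 without 3T3-L1 control replicate 2.

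Within 3T3-L1 control the set was ranked by CPM per kilobase of exon, the scale on which genes can be compared. Plin2, the droplet coat protein found in most cells, stood first at 56.2 CPM per kb and Cebpb second at 53.7 CPM per kb. Adipor1 (34.8 CPM per kb) and Adipor2 (13.9), receptors of adiponectin, and Fabp5 (25.7), a fatty acid carrier of many tissues, followed with Agpat2 (15.2), an enzyme of triglyceride synthesis. Dlk1 was at 9.57, Zfp521 at 8.88 and Pparg at 7.17 CPM per kb. Cebpa stood at 1.15, Fabp4 at 0.508 and Adipoq at 0.0148 CPM per kb.

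The first question was how the preadipocyte line differed from the tumour lines, and it was asked in control libraries. Of the 30 genes tested, 9 were higher and 10 lower in 3T3-L1 control than in the mean of the log2 levels of the tumour lines' controls, at an adjusted p under 0.05. Among all 21237 genes tested 22.1% were higher and 18.7% lower by the same call. The median log2 difference of the 30 was -0.21, beside 0.04 over all genes. Against M27H4 alone 9 were higher and 10 lower (18.9% and 17.8% of all genes), and against M6 alone 9 were higher and 7 lower (20.5% and 18.9%). Against the tumour mean, 5 of 12 transcriptional regulators were called higher in 3T3-L1, among them Pparg, Ebf1 and Zfp521. Cebpa, Cebpb and Ppargc1a were the 3 regulators called lower. Of 5 tested genes of triglyceride synthesis 3 were called lower and 0 higher.

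Pparg, the nuclear receptor that drives adipogenesis, was at 21.3 and 21 CPM in 3T3-L1 control, against 0.943, 1.85 and 1.74 CPM in M27H4 control and 3.21 and 3.71 CPM in M6 control. Every 3T3-L1 library was above every tumour library. The log2 difference was 3.8 over M27H4 (SE 0.32, adjusted p = 1.23e-06), a 13.9-fold difference, and 2.61 over M6 (SE 0.36, adjusted p = 6.80e-05), a 6.1-fold difference. Its overexpression libraries in 3T3-L1, at 20.2 and 21.2 CPM, lay at the same height. Per column, Pparg ran from 3.39 to 3.65 CPM of the column total in M6 columns that shared a run code with 3T3-L1 and from 2.76 to 4.39 CPM in those that did not. In M27H4 it ran from 1.26 to 2.16 CPM in the 6 columns that shared one and from 0.959 to 1.23 CPM in the 2 that did not, without overlap. With only the tumour columns of unshared run codes, a choice made after the data were seen, the log2 difference over M27H4 was 4.5 (adjusted p = 0.000268).

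The starts of Pparg were told apart by transcript. Transcripts from the upstream starts made up 84.8% ± 0.832 (SD, n = 2) of Pparg counts in 3T3-L1 overexpression and 83.2% ± 3.43 (n = 2) in 3T3-L1 control, and the downstream start, that of Pparg-201, made up 14.8% ± 0.755 and 16.2% ± 3.70. On the level scale the downstream start was at 3.06 CPM ± 0.261 in 3T3-L1 overexpression and 3.43 ± 0.751 in 3T3-L1 control. In both 3T3-L1 groups most Pparg RNA was thus assigned to the upstream starts, which many cell types use. In M6 the downstream share was 2.47% ± 3.49 (SD, n = 2) in knockdown, with 0 to 10.3% over its 3 columns, and 21% ± 1.38 (n = 2) in control, with 17 to 29.6% over its 4 columns. The M6 groups did not overlap, and on the level scale the downstream start was at 0.0979 CPM ± 0.138 in knockdown and 0.722 ± 0.0259 in control. This difference was not tested, and in M6 knockdown replicate 2 the share was 10.3% in 1 column and 0% in the other. In M27H4 it was 12.9% ± 11.6 (n = 3) in overexpression and 11.6% ± 10.4 (n = 3) in control, and in control replicate 2 it was 2.63% in 1 column and 28.5% in another. The tumour line columns held 43 to 505 counts of Pparg each, against 2293 to 2604 in the 3T3-L1 columns, and shares at such counts are estimates of how the assembler split reads among transcripts.

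**Figure D2:**
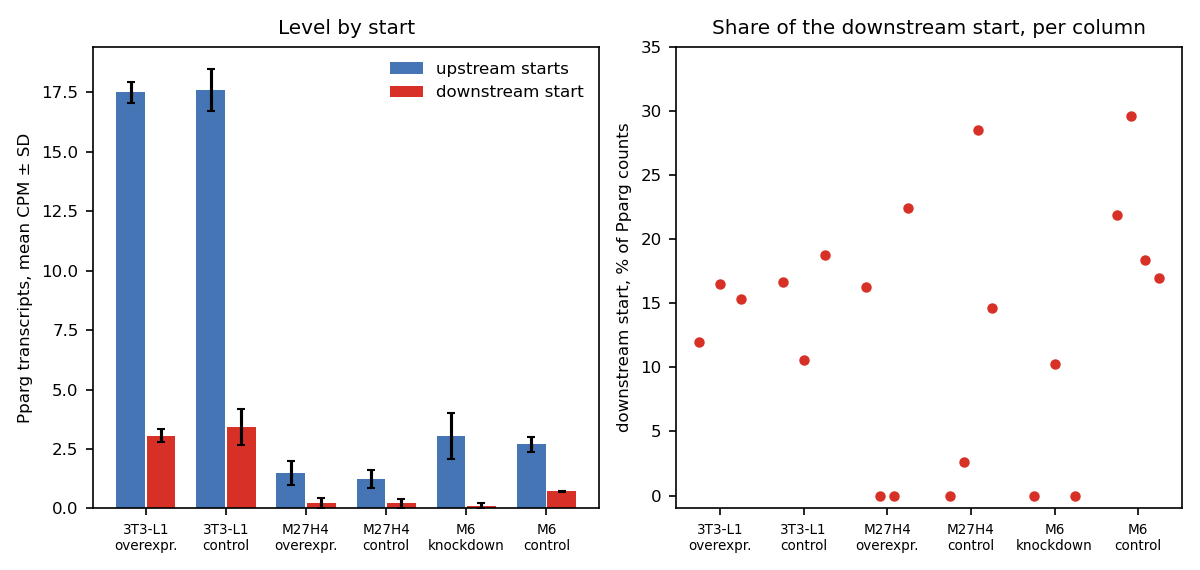
Left, mean CPM of Pparg transcripts from the upstream starts and from the downstream start in each group, with bars for the SD over replicates; right, percent of Pparg counts at the downstream start in each deposited column. In 3T3-L1 the downstream share lies between 10.6 and 18.8% in every column, in M6 it lies between 0 and 10.3% in knockdown columns and between 17 and 29.6% in control columns, and in M27H4 it scatters between 0 and 28.5%.

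Dlk1, Zfp521 and Zfp423, genes of the preadipocyte state, were higher in 3T3-L1 than in either tumour line. Dlk1 was at 58.7 and 49.7 CPM in 3T3-L1 control, against 0, 0.749 and 1.10 CPM in M27H4 control and 0 and 0.401 CPM in M6 control. Zfp521, a zinc finger repressor of adipose commitment, was at 62.2 and 62.7 CPM in 3T3-L1 control, against 0.813, 1.36 and 1.27 CPM in M27H4 control and 0.0621 and 0.304 CPM in M6 control. In both genes the 3T3-L1 libraries stood far above all others, with log2 differences over M27H4 of 6.38 for Dlk1 (95% interval 3.37 to 9.39, adjusted p = 0.00479) and 5.75 for Zfp521 (4.36 to 7.13, adjusted p = 2.75e-05). Zfp423, which commits cells to the adipose lineage, was at 3.27 and 5.52 CPM in 3T3-L1 control, against 0.130, 0.278 and 0.0897 CPM in M27H4 control and 0 and 0.0194 CPM in M6 control. Zfp423 thus stood with its antagonist Zfp521 in the same line, at a lower level (0.783 CPM per kb, against 8.88 for Zfp521), and its log2 difference over M27H4 was 4.67 (adjusted p = 4.68e-05), or 5.36 without M27H4 control replicate 2 (adjusted p = 0.000117). That of Dlk1 was 6.98 without M27H4 control replicate 3 (adjusted p = 0.014).

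Both EBF factors followed. Ebf1 was at 23.3 and 15.8 CPM in 3T3-L1 control, against 2.57, 2.31 and 5.52 CPM in M27H4 control and 0.0621 and 0.113 CPM in M6 control. The order was 3T3-L1, M27H4 and M6, with no overlap between neighbours and with log2 differences of 2.49 for 3T3-L1 over M27H4 (adjusted p = 0.00036) and 5.13 for M27H4 over M6 (adjusted p = 1.39e-05). Ebf2, known from brown and beige precursors, was at 1.24 and 1.41 CPM in 3T3-L1 control, against 0, 0.0576 and 0 CPM in M27H4 control and 0 and 0.0097 CPM in M6 control. That was a log2 difference of 5.65 over M27H4 (adjusted p = 0.000208), and M6 control held only 3 counts in all. All 11 Ebf2 counts of M27H4 control were in replicate 2, whose run codes were shared with 3T3-L1, so this fold rests on that library, without which M27H4 control was at 0 counts.

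Traces of these genes in the tumour lines went with the run code, the part of a column's name that some libraries of different lines share. In M6, Dlk1 had 0 counts in all 4 columns of a run code that held M6 libraries alone, and 0.3 to 0.663 CPM of the column total in the 3 columns whose run codes also held 3T3-L1 libraries. Those 3 values are 0.476 to 1.02% of the Dlk1 level in 3T3-L1 columns of the same run code. Plin4 showed the same split in M6, at 0 counts in the 4 columns and 0.081 to 0.239 CPM in the 3. Zfp521 was at 0 to 0.0899 CPM in the 4 and 0.211 to 0.543 CPM in the 3, and Lpl, high in both other lines, at 0.0899 to 0.224 and 0.381 to 1.48 CPM. In M27H4, Dlk1 was at 0 and 0.229 CPM in the 2 columns of a run code that held M27H4 replicate 1 alone, and at 0.455 to 1.29 CPM in the other 6. The folds of these genes over the tumour lines therefore moved with the columns used, and the part of the shared run code in them was not tested beyond this. With only the tumour columns whose run codes held no 3T3-L1 library, a choice made after the data were seen, Zfp521 differed from M6 by 9.65 on the log2 scale, beside 8.12 with all columns (adjusted p = 3.14e-06 and 1.66e-05), and it was 9.97 without M6 control replicate 2 (adjusted p = 0.000227).

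**Figure D3:**
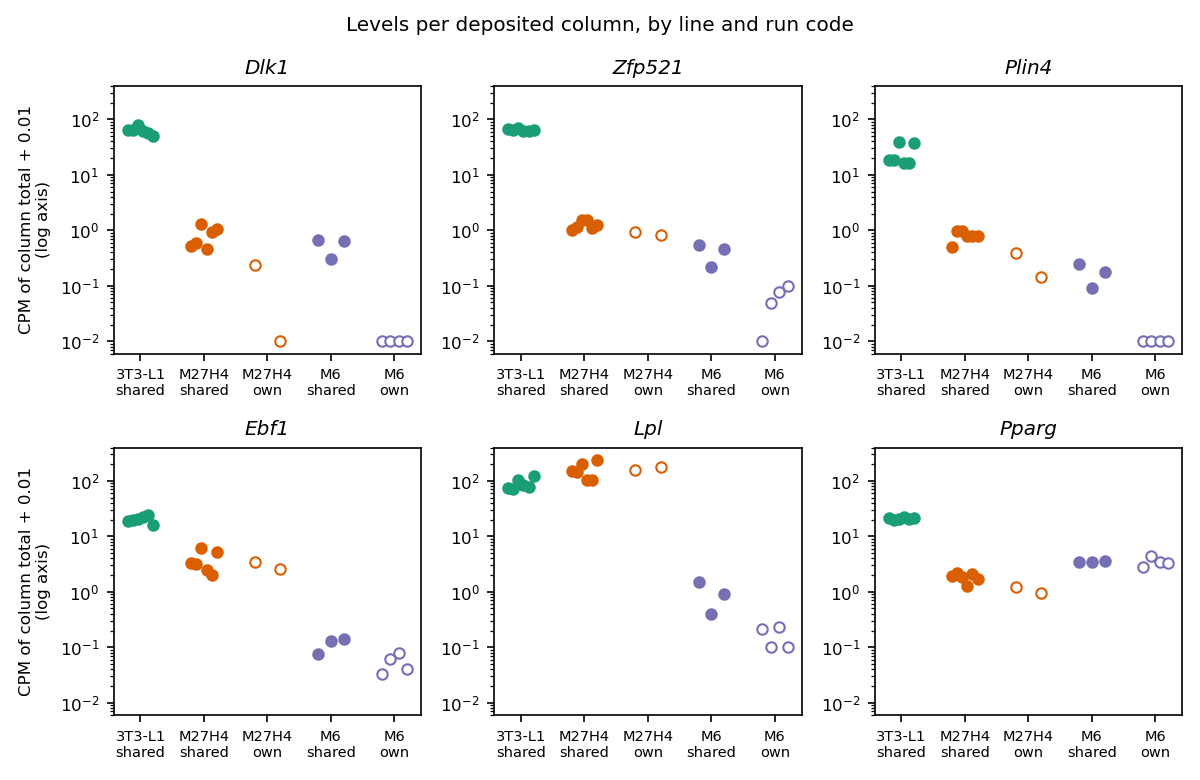
Level of 6 genes in each deposited column, as CPM of the column total plus 0.01 on a log axis, by line. Filled points are columns whose run code also held 3T3-L1 libraries and open points those whose run code did not. The open M6 points of Dlk1 and Plin4 lie at 0 counts, while Pparg in M6 is as high in open as in filled points.

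None of the C/EBP factors was higher in 3T3-L1 by the test. Cebpa, the partner that keeps Pparg on in fat cells, was at 2.55 and 3.50 CPM in 3T3-L1 control, against 14.9, 27.8 and 33.9 CPM in M27H4 control and 1.72 and 1.80 CPM in M6 control. The highest Cebpa was in M27H4, 8.45-fold above 3T3-L1 (log2 difference of 3T3-L1 over M27H4 -3.08, SE 0.38, adjusted p = 2.81e-05), and 3T3-L1 and M6 did not differ by the test (0.78, 95% interval -0.02 to 1.57, adjusted p = 0.115). Cebpb was at 71.5 and 90.1 CPM in 3T3-L1 control, against 338.6, 182.5 and 171.4 CPM in M27H4 control and 140.5 and 182.5 CPM in M6 control. It was lower in 3T3-L1 than in either tumour line, at -1.51 against M27H4 (adjusted p = 0.000953) and -1 against M6 (adjusted p = 0.0169), and the call against M6 ended without 3T3-L1 control replicate 1 (-0.88, adjusted p = 0.102) or M6 control replicate 2 (-0.78, adjusted p = 0.0998). Cebpd was at 31.7 and 55.9 CPM in 3T3-L1 control, against 200.6, 8.64 and 9.43 CPM in M27H4 control and 204.7 and 260.9 CPM in M6 control. The M27H4 value of 200.6 CPM belongs to replicate 1, which had a run code of its own with its overexpression partner. That partner was also high at 49 CPM, and no comparison of Cebpd between lines was called (adjusted p = 0.252 to 0.721 over the 3 pairs of lines). Ppargc1a, a coactivator of Pparg in mitochondrial programs, was at 2.39 and 2.75 CPM in 3T3-L1 control, against 3.92, 5.27 and 7.22 CPM in M27H4 control and 16.2 and 8.51 CPM in M6 control. It was lower than in M6 by a log2 difference of -2.27 (adjusted p = 0.00249), and against M27H4 it was at -1.09 with no call (adjusted p = 0.0737), while a fit with the replicate pairs as a block called it (-1.23, adjusted p = 0.0199).

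Of the Krüppel-like factors, which act at several steps of adipogenesis, Klf4 and Klf5 showed no call between lines. Klf4 was at 35.6 CPM ± 0.577 (SD, n = 2) in 3T3-L1 control, 35.5 ± 5.74 (n = 3) in M27H4 control and 59.3 ± 39.9 (n = 2) in M6 control, and Klf5 at 3.71 ± 1.63, 3.19 ± 0.407 and 3.19 ± 0.876 CPM in that order. Klf15, a late activator of Slc2a4, was at 0.141 and 0.129 CPM in 3T3-L1 control, against 1.07, 1.12 and 0.661 CPM in M27H4 control and 0 counts in M6 control. It was lower in 3T3-L1 than in M27H4 by a log2 difference of -2.8 (adjusted p = 0.00542).

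**Figure D4:**
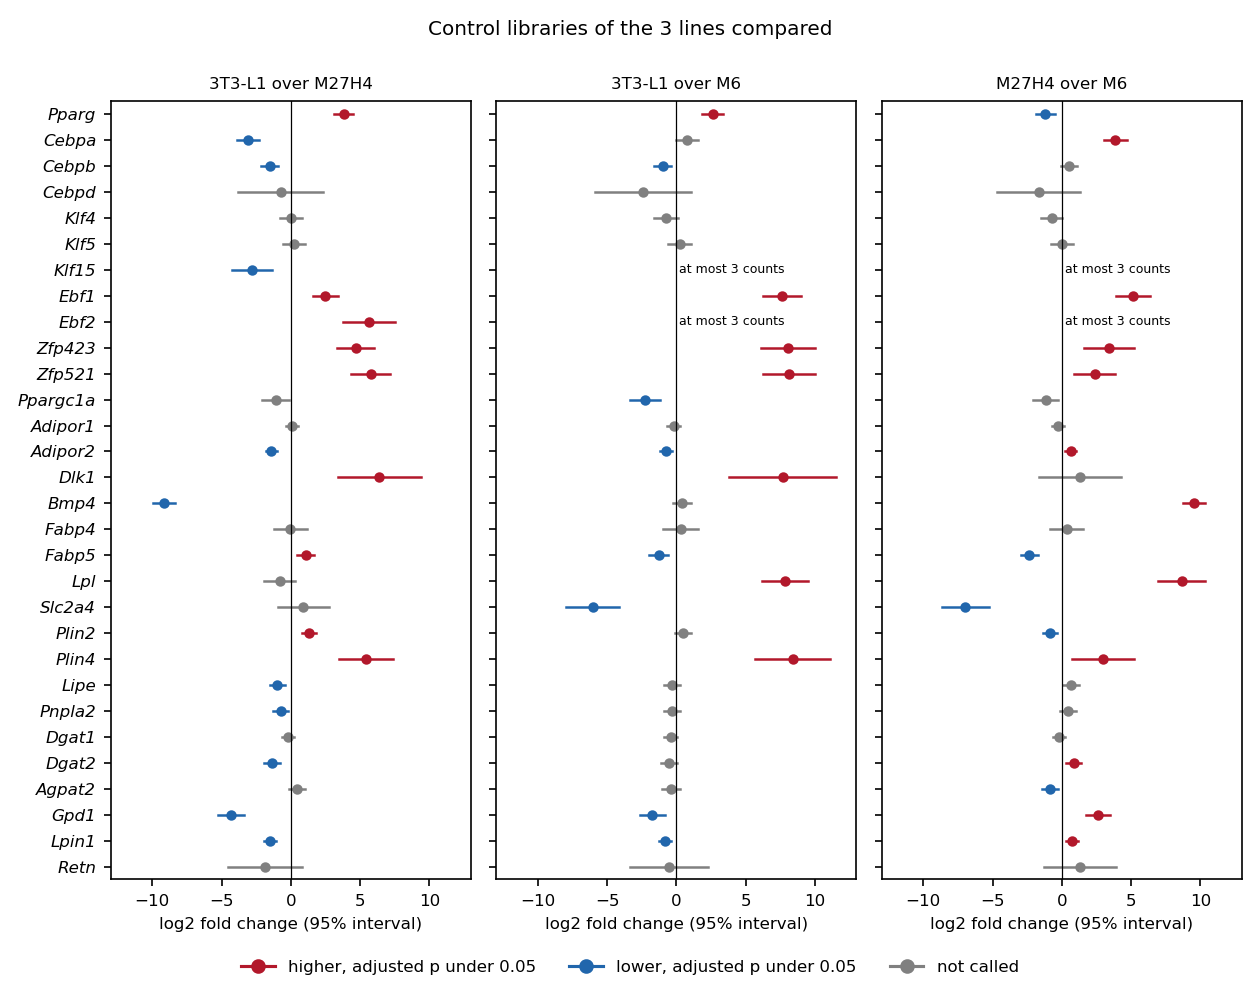
Log2 difference of each of the 30 tested genes between control libraries of the lines, with 95% intervals, red where higher and blue where lower at an adjusted p under 0.05. No point is drawn where a group held at most 3 counts. The regulators from Ebf1 to Zfp521 lie to the right in the left and middle panels, except that Ebf2 has no point in the middle panel. Bmp4 lies near -9 over M27H4 and near 0 over M6.

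Among signals, Bmp4, a ligand that commits mesenchymal cells to the adipose lineage, was an M27H4 gene. It was at 0.305 and 0.307 CPM in 3T3-L1 control, against 158.1, 186 and 177.8 CPM in M27H4 control and 0.104 and 0.291 CPM in M6 control. M27H4 control thus stood 567.3-fold above 3T3-L1 control (log2 difference of 3T3-L1 over M27H4 -9.15, 95% interval -9.92 to -8.38, adjusted p = 4.58e-09). All 3T3-L1 columns shared a run code with M27H4 libraries and held 0.136 to 0.268% of their Bmp4 level, and the part of the shared run code in this trace was not tested. Adipor2 was at 87.3 and 78.3 CPM in 3T3-L1 control, against 184.6, 255.7 and 224.7 CPM in M27H4 control and 128.3 and 154.7 CPM in M6 control, lower than in either (-1.42 and -0.78, adjusted p = 6.35e-05 and 0.00726). Without M6 control replicate 2 the call against M6 ended (-0.62, adjusted p = 0.0583). Adipor1 was within 1.13-fold in 3T3-L1 against M6 and within 1.07-fold against M27H4, with no call (95% intervals -0.65 to 0.29 and -0.33 to 0.53 on the log2 scale).

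Lipid uptake genes split by line. Lpl, the lipase that releases fatty acids from circulating triglyceride, was at 82 and 118.6 CPM in 3T3-L1 control, against 173.2, 110.6 and 247.7 CPM in M27H4 control and 0.207 and 0.582 CPM in M6 control. It was high in both 3T3-L1 and M27H4 (log2 difference -0.82, 95% interval -1.94 to 0.30, adjusted p = 0.243, and -1 with an adjusted p = 0.00461 with the replicate pairs as a block) and almost absent from M6 (7.84 over M6, adjusted p = 8.62e-06, and 8.93 without M6 control replicate 2, adjusted p = 0.000182). Slc2a4, the insulin-regulated glucose transporter GLUT4, was at 0.0637 and 0.0646 CPM in 3T3-L1 control, against 0, 0.0576 and 0.0245 CPM in M27H4 control and 3.02 and 5.55 CPM in M6 control. It was found at more than a trace in M6 only of the 3 lines tested, with a log2 difference of -6.05 for 3T3-L1 over M6 (adjusted p = 0.000111) and -6.96 for M27H4 over M6 (adjusted p = 1.88e-05). Its call against the mean of the tumour lines (-2.57, adjusted p = 0.0165) ended without 3T3-L1 control replicate 1 (-2.57, adjusted p = 0.101), 3T3-L1 control replicate 2 (-2.58, adjusted p = 0.0905) or M27H4 control replicate 2 (-2.03, adjusted p = 0.102). With only the tumour columns of unshared run codes it was -0.2 (adjusted p = 0.891), in a fit where M27H4 control held 0 counts of Slc2a4. Without M27H4 control replicate 2 the difference of M27H4 over M6 was -8.03 (adjusted p = 0.000106). Fabp5 was at 91.5 CPM ± 9.27 (SD, n = 2) in 3T3-L1 control, 43.6 ± 5.57 (n = 3) in M27H4 control and 221.1 ± 112.6 (n = 2) in M6 control, higher than in M27H4 by 1.07 (adjusted p = 0.00983) and lower than in M6 by a log2 difference of -1.28 (adjusted p = 0.00636).

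Of the droplet coat genes, Plin4 was higher in 3T3-L1 than in either tumour line, and Plin2 was higher than in M27H4. Plin4, a coat protein of nascent droplets, was at 16.4 and 36.7 CPM in 3T3-L1 control, against 0.130, 0.838 and 0.824 CPM in M27H4 control and 0 and 0.107 CPM in M6 control. Its log2 difference over M27H4 was 5.42 (95% interval 3.49 to 7.35, adjusted p = 0.000612), and 4.75 without 3T3-L1 control replicate 2 (adjusted p = 0.00514). In both 3T3-L1 groups replicate 2 held more Plin4 than replicate 1, at 39.8 against 18.5 CPM in overexpression. Plin2 was at 190.8 and 203.7 CPM in 3T3-L1 control, against 69.5, 82.4 and 84.6 CPM in M27H4 control and 102.4 and 181.7 CPM in M6 control, 2.5-fold above M27H4 (adjusted p = 0.00062) and without a call over M6 (0.47, adjusted p = 0.178). The lipases were not higher: Lipe, hormone-sensitive lipase, and Pnpla2, adipose triglyceride lipase, were lower than in M27H4 by log2 differences of -0.98 (adjusted p = 0.0103) and -0.74 (adjusted p = 0.0403) and did not differ by the test from M6 (adjusted p = 0.402 and 0.407).

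No tested gene of triglyceride synthesis in the set was higher in 3T3-L1 by the test. Of the 5 tested 3 were lower than the mean of the tumour lines and none was higher, beside 18.7% lower and 22.1% higher of all genes tested, with a median log2 difference of -0.94 beside 0.04 over all genes. Gpd1, which makes glycerol 3-phosphate, was at 0.683 and 0.678 CPM in 3T3-L1 control, against 9.34, 13.2 and 18.2 CPM in M27H4 control and 2.53 and 2.01 CPM in M6 control. It was 19.9-fold lower than in M27H4 (adjusted p = 5.44e-06) and 3.32-fold lower than in M6 (adjusted p = 0.00418). Lpin1, a phosphatidate phosphatase, was at 8.33 and 10.4 CPM in 3T3-L1 control, against 27.4, 28.2 and 25.4 CPM in M27H4 control and 17.7 and 14.8 CPM in M6 control. Its log2 differences were -1.53 against M27H4 (adjusted p = 4.52e-05) and -0.80 against M6 (adjusted p = 0.00723), the second of which was at -0.69 without 3T3-L1 control replicate 1 (adjusted p = 0.0565). Dgat2, an enzyme of the last step, was at 8.02 CPM ± 0.647 (SD, n = 2) in 3T3-L1 control, 20.6 ± 2.34 (n = 3) in M27H4 control and 11.4 ± 3.47 (n = 2) in M6 control, lower than in M27H4 (-1.36, adjusted p = 0.00101). Dgat1, the other enzyme of that step, and Agpat2 showed no call for 3T3-L1 against either line (adjusted p = 0.152 to 0.393).

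Between the tumour lines 12 of the 30 genes were higher and 5 lower in M27H4 control than in M6 control (15.2% and 15% of all genes tested). Bmp4 (log2 difference 9.56), Lpl (8.66), Ebf1 (5.13), Cebpa (3.86) and Gpd1 (2.58) were among those higher in M27H4, and Slc2a4 (-6.96), Fabp5 (-2.34) and Pparg (-1.19, adjusted p = 0.00991) among those lower. Cebpa and Pparg, which fat cells express together, were thus highest in different lines. With only the tumour columns whose run codes held no 3T3-L1 library, 11 of the 30 were called, 8 higher and 3 lower, beside 9.38% and 9.67% of the genes tested there.

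The wider pathway was read from 93 further genes, of which 80 were tested. In 3T3-L1 control 24 were higher and 25 lower than in the mean of the tumour lines, beside 22.1% and 18.7% of all genes tested. Pdgfrb is also on the fibroblast marker list. The 6 with the smallest p among the higher ones were Foxc2 (9.17 CPM ± 0.116 in 3T3-L1 control, n = 2), Ddit3 (141.6 ± 30), Ebf3 (14.6 ± 1.43), Cav1 (231.0 ± 51.8), Fgf10 (5.44 ± 0.511) and Pdgfrb (135.4 ± 10.8). Foxc2 is a forkhead factor of adipose and mesenchymal cells, Ebf3 another EBF factor, Ddit3 the stress factor CHOP, which blocks C/EBP binding, Cav1 the caveola coat protein, Fgf10 a growth factor for preadipocytes and Pdgfrb a receptor of mural and adipose progenitor cells. Each stood above every tumour control library, with log2 differences from 2.14 for Pdgfrb to 8.03 for Foxc2. The 6 among the lower ones were Wnt10a (0.421 CPM ± 0.158 in 3T3-L1 control), Lpin3 (1.54 ± 0.233), Gata3 (3.30 ± 0.412), Dio2 (0.498 ± 0.254), Sfrp1 (0.0321 ± 0.000314) and Id2 (7.72 ± 1.43). Gata3 is a repressor of adipogenesis, Wnt10a an antiadipogenic Wnt ligand and Dio2 the thyroid hormone deiodinase of brown fat. Log2 differences of these 6 ran from -7.55 for Dio2 to -2.27 for Id2, and Id2 and Sfrp1 were called against M27H4 and not against M6 (adjusted p = 0.149 and 0.393). Of the 20 preadipocyte genes and antiadipogenic signals 18 were tested, with 9 higher and 6 lower, and among 27 tested adipogenic regulators 6 were higher and 8 lower. Against M27H4 alone 6 of those 18 were higher and 6 lower, beside 18.9% and 17.8% of all genes. Pdgfra averaged 274.6 CPM ± 72 in 3T3-L1 control, against 865.7 ± 84.6 in M27H4 control and 16.5 ± 1.09 in M6 control. Ly6a averaged 141.6 ± 7.93, 360.6 ± 55.7 and 116.7 ± 46.7 CPM in that order.

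The second question was whether Esrp2-as moved these genes. In 3T3-L1 overexpression none of the 30 genes was called by edgeR at an adjusted p under 0.05, and none had an unadjusted p under 0.05 either, while 0.00471% of all genes were called and 0.946% had such an unadjusted p. DESeq2 called none of them. The median log2 change of the 30 was 0.07, beside 0.00 over all genes, with 21 positive and 9 negative. Ranges of the replicates did not overlap for 10 of the 30, 8 higher and 2 lower, beside 12.1% and 11.2% of all genes.

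Pparg in 3T3-L1 was at 20.2 and 21.2 CPM with overexpression, against 21.3 and 21 CPM in control, a log2 change of -0.03 whose 95% interval ran from -0.76 to 0.69. Cebpa was at 2.33 and 4.03 CPM, against 2.55 and 3.50 CPM in control (0.07, interval -0.71 to 0.85). Fabp4 was at 1.58 and 1.71 CPM with overexpression, against 1.82 and 2.74 CPM in control (-0.47, interval -1.74 to 0.81). Dlk1 was at 64.7 and 81.5 CPM, against 58.7 and 49.7 CPM in control (0.43, interval -2.39 to 3.25). The Dlk1 and Fabp4 groups did not overlap, Dlk1 being the higher and Fabp4 the lower with overexpression, and neither difference passed the test. The spread behind the Dlk1 interval was shared with the tumour lines. There its replicates ran from 0 to 1.32 CPM in M27H4 and from 0 to 0.403 CPM in M6. Neither gene was called in a fit of the 3T3-L1 libraries alone. Adipoq was at 0.0126 and 0.0178 CPM, against 0.041 and 0 CPM in control, which is 5 counts against 9.

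Of the 4 genes with the smallest p in 3T3-L1 overexpression, 3 were under 1 CPM. Bmp4 was at 0.431 and 0.479 CPM in 3T3-L1 overexpression, against 0.305 and 0.307 CPM in control (log2 change 0.57, SE 0.28, adjusted p = 1). Klf15 was at 0.251 and 0.320 CPM, against 0.141 and 0.129 CPM in control (1.06, SE 0.67, adjusted p = 1), and Retn had 3 counts, against 10 in control. Lpin1, the other, was at 10.8 and 10.7 CPM, against 8.33 and 10.4 CPM in control (0.20, interval -0.24 to 0.64, adjusted p = 1). Among genes at higher levels, the log2 changes and intervals were Plin2 at -0.09 (-0.66 to 0.47), Fabp5 at -0.05 (-0.73 to 0.64), Adipor2 at 0.01 (-0.42 to 0.44) and Dgat1 at -0.00 (-0.47 to 0.47). Wider intervals than these were those of Cebpd (-3.24 to 3.38), Plin4 (-1.75 to 2.02) and Lpl (-1.38 to 1.03), in which a change of 2-fold would lie within the interval. All these intervals are from the fit by group alone, without the replicate pairs and with each gene's spread pooled over all 6 groups. Cebpd was at 35.9 and 56 CPM with overexpression, against 31.7 and 55.9 CPM in control. Plin4 was at 18.5 and 39.8 CPM, against 16.4 and 36.7 CPM in control, and Lpl at 72.9 and 105 CPM, against 82 and 118.6 CPM in control. In each of them replicate 2 was the higher in both groups.

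**Figure D5:**
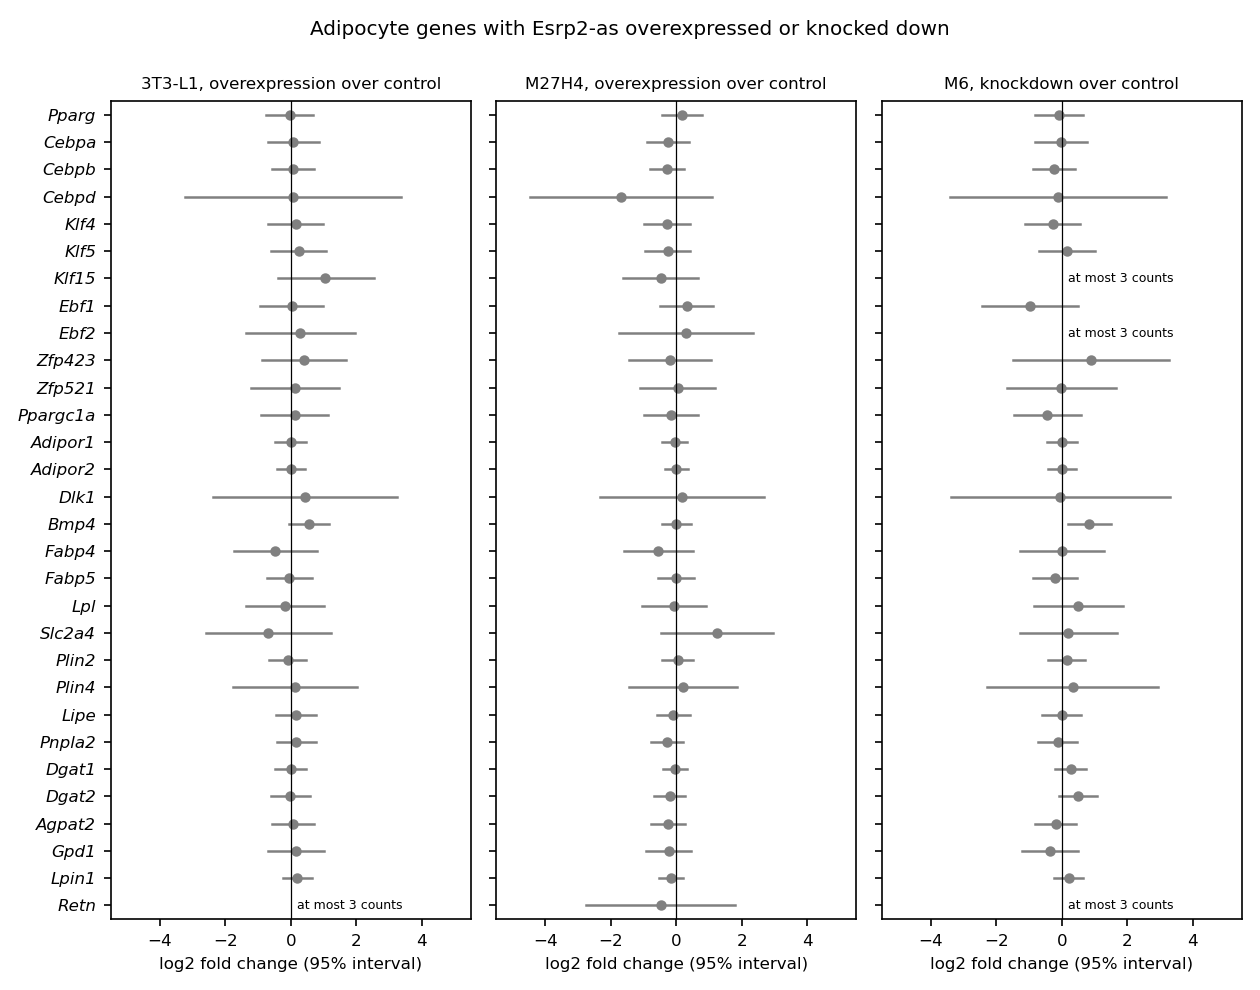
Log2 change of each of the 30 tested genes with Esrp2-as overexpressed in 3T3-L1 and M27H4 and knocked down in M6, each over its control, with 95% intervals. No point is drawn where a group held at most 3 counts, and all points are grey because none was called.

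In M27H4 overexpression again none of the 30 was called by edgeR or DESeq2, and none had an unadjusted p under 0.05 (0.00942% and 1.69% of all genes). Of the 30, 9 had a positive and 21 a negative log2 change, with a median of -0.12 beside -0.03 over all genes, and replicate ranges overlapped in every one (5.1% of all genes did not overlap). Pparg was at 1.19, 2.05 and 1.88 CPM, against 0.943, 1.85 and 1.74 CPM in control (log2 change 0.19, interval -0.43 to 0.80), and Cebpa at 19.6, 20.9 and 23.8 CPM, against 14.9, 27.8 and 33.9 CPM in control (-0.25, interval -0.89 to 0.38). Cebpd was at 49, 9.73 and 8.94 CPM, against 200.6, 8.64 and 9.43 CPM in control. Its log2 change of -1.70 (adjusted p = 1) rested on replicate 1 and turned to 1.31 without control replicate 1. Fabp4 was at 2.42, 0.936 and 1.48 CPM, against 4.23, 0.969 and 1.86 CPM in control, and its change of -0.56 (adjusted p = 1) turned to 0.17 without the same library. Dlk1 was at 0.222, 0.537 and 1.32 CPM, against 0, 0.749 and 1.1 CPM in control (0.17, interval -2.33 to 2.68), in the trace range that moved with the run code. Pnpla2 was at 8.89, 16.5 and 17.6 CPM, against 17.1, 17.3 and 18.2 CPM in control (-0.29, adjusted p = 1). Slc2a4 was at 0.0834, 0.105 and 0.0495 CPM, against 0, 0.0576 and 0.0245 CPM in control (1.23, adjusted p = 1), with 34 counts against 14 in all.

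In M6 knockdown none of the 30 was called by edgeR or DESeq2, and 3 had an unadjusted p under 0.05, Klf15, Bmp4 and Retn (0.137% of all genes were called, and 6.27% had such a p). The log2 changes were positive in 15 and negative in 15, with a median of 0.00 beside -0.03 over all genes. Klf15 had 11 counts, all in knockdown replicate 2, against 0 in control, and Retn had 0 counts, against 21 in control, all in replicate 2. Bmp4 was at 0.359 and 0.448 CPM, against 0.104 and 0.291 CPM in control (log2 change 0.84, SE 0.31, adjusted p = 0.614). Without M6 control replicate 2 Bmp4 was called (2, adjusted p = 0.0474). These 3 genes are at trace levels in M6, and M6 columns that shared a run code with M27H4, where Bmp4 was high, held 0.211 to 0.635 CPM of Bmp4, against 0.112 to 0.385 CPM in the columns of the run code that held M6 alone. Dgat2 was at 19.4 and 12.8 CPM, against 13.9 and 8.99 CPM in control (0.49, interval -0.09 to 1.08, adjusted p = 0.914). Dlk1 was at 0 and 0.403 CPM, against 0 and 0.401 CPM in control. Fabp4 was at 1.35 and 2.3 CPM, against 1.57 and 2.07 CPM in control, and Cebpa at 1.43 and 2.01 CPM, against 1.72 and 1.8 CPM in control (interval -0.83 to 0.78). Pparg was at 2.57 and 3.97 CPM, against 3.21 and 3.71 CPM in control (-0.08, interval -0.82 to 0.66), and Slc2a4 at 3.99 and 5.91 CPM, against 3.02 and 5.55 CPM in control (0.20, interval -1.27 to 1.68).

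The difference between the overexpression effects of 3T3-L1 and M27H4 was tested as an interaction, and none of the 30 was called nor had an unadjusted p under 0.05, beside 0.00471% of all genes called and 1.51% with such a p. Of the 80 wider genes tested none was called in the 3T3-L1, M27H4 or M6 comparison, and 0, 3 and 8 of them had an unadjusted p under 0.05 in that order, beside 0.946%, 1.69% and 6.27% of all genes.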

How the data were processed

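Total RNA of 3 mouse cell lines was sequenced after ribosomal RNA removal with a strand-specific kit, per the labels' protocols. The deposited gene and transcript tables hold whole-number estimated counts, made by the authors with cutadapt, HISAT2 and StringTie on mm10 (GRCm38), per the submitters' processing notes, which give no versions. Technical replicates were summed, giving 14 biological replicates from 21 columns with 34892461 to 328493417 counts each. Symbols came from GENCODE M21, and ids without a match held 0.0515% of counts. A column in each of the 2 signal tables, 1 per table, matched no sample and was not used.

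Genes were filtered by edgeR's filterByExpr, leaving 21237, scaled by TMM and fitted in one quasi-likelihood model over 6 groups (edgeR 4.0.16, R 4.3.3), with Benjamini-Hochberg adjustment over all genes and a call at an adjusted p under 0.05. The 95% intervals are the log2 difference with its SE and the t quantile at the total (residual and prior) degrees of freedom. The SE is the absolute log2 difference divided by the square root of the F statistic. The p values rest on 2 or 3 replicates a group, with the spread of each gene estimated over all 6 groups. DESeq2 1.42.0, other scalings, no filter, a replicate block, each line alone, run codes, and leaving out each replicate were alternatives. Libraries with the same number shared run codes in 3T3-L1 and M27H4, and their deviations correlated (0.375 in 3T3-L1, 0.292 to 0.634 in M27H4, 0.654 in M6). The number was therefore taken as a pairing in the replicate block. The main fit was by group alone and did not use the pairs. The code was tested on simulated data.

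Values in every replicate were given for Pparg, Cebpa, Fabp4, Adipoq and Dlk1, for the 4 genes with the smallest p in a perturbation, and for up to 8 called genes a direction with the largest difference between 3T3-L1 and the tumour lines. Genes outside this rule that are named with values were chosen after their values were seen. The 37 genes and the lists were chosen with earlier results of these data known. Intervals and floors cover counting error only where they come from counts, with a floor of 3 counts.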

Additional observations from a re-analysis of the deposited data

How the results depend on the processing

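The count of the 37 genes called stayed at 0 in 3T3-L1 overexpression, in M27H4 overexpression and in their difference under every alternative run, and at 0 to 1 in M6 knockdown when each replicate was left out, the 1 being Bmp4 without control replicate 2 (2, adjusted p = 0.0474). With the replicate pairs as a block no perturbation called a gene of the set. Between lines 15 to 20 were called against the mean of the tumour lines, 14 to 20 against M6, 16 to 21 against M27H4, and 11 to 19 for M27H4 against M6, where 11 came from the tumour columns whose run codes held no 3T3-L1 library. Over all genes, 3T3-L1 overexpression called 1, with 2 without the filter, 0 under the block, 12 by DESeq2, 4 in the line alone and 0 to 5 without 1 replicate. M27H4 overexpression called 2, with 1 under the block, 6 by DESeq2, 1 in the line alone and 1 to 2 without 1 replicate. M6 knockdown called 29, with 64 without the filter, 293 under the block, 235 by DESeq2, 0 in the line alone and 6 to 60 without 1 replicate. The difference of the overexpression effects called 1, with 0 under RLE factors, library totals or the block, 10 by DESeq2 and 0 to 5 without 1 replicate. With tumour columns whose run codes held no 3T3-L1 library, 5135 genes were called for 3T3-L1 over M27H4 and 3915 for M27H4 over M6, in place of 7777 and 6420, from fewer columns. Signs turned only in differences that were not called in the main fit, though Bmp4 in 3T3-L1 over M6 was called under other settings. Without 1 replicate, M27H4 overexpression gave -2.96 to 1.31 for Cebpd, -0.95 to 0.17 for Fabp4, -0.05 to 0.37 for Pparg and -0.52 to 0.01 for Cebpa. 3T3-L1 overexpression gave -0.37 to 0.41 for Cebpa. M6 knockdown gave -0.44 to 0.2 for Pparg and -0.31 to 0.19 for Cebpa, and 0.11 and 0.01 with the M6-only run code. Fabp4 in 3T3-L1 over the tumour mean ran from -0.18 to 0.5 without 1 replicate, and was -0.24 under the block and -0.2 with tumour columns of unshared run codes. Bmp4 in 3T3-L1 over M6 was -0.13 with the shared run codes only, 1.46 (adjusted p = 0.0283) with tumour columns of unshared ones and 1.57 (adjusted p = 0.0175) without M6 control replicate 2. Calls against the tumour mean were lost for Slc2a4 under the block (-1.55, adjusted p = 0.23), for Ppargc1a without 3T3-L1 control replicate 1 or 2 (adjusted p = 0.0777 and 0.0571) and for Cebpa without 3T3-L1 control replicate 1 (adjusted p = 0.117). All 3 were also lost with tumour columns of unshared run codes (Slc2a4 -0.2, adjusted p = 0.891, Cebpa -0.67, adjusted p = 0.14, Ppargc1a -1.34, adjusted p = 0.115). The cause of these changes was not tested. Klf15 and Retn in M6 gave no value where both groups were at 0 counts. No fold was given for Retn in 3T3-L1, where overexpression held 3 counts.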

Other observations

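Other genes of the adipose pathway also separated the control lines, and they were chosen here after their values were seen. Vldlr, a receptor that takes up triglyceride-rich particles, averaged 99.7 CPM ± 1.88 (SD, n = 2) in 3T3-L1 control, against 5.14 ± 0.929 (n = 3) in M27H4 control and 0.281 ± 0.398 (n = 2) in M6 control, a log2 difference of 6.2 from the tumour mean (adjusted p = 0.000138). Wnt5a, a noncanonical Wnt ligand, averaged 35 CPM ± 2.96 in 3T3-L1 control, against 1.51 ± 1.22 in M27H4 control and 0.103 ± 0.146 in M6 control (6.23, adjusted p = 6.58e-05). Both were higher in every 3T3-L1 control library than in any tumour control library. Trib3, a stress-induced inhibitor of Akt, averaged 150.9 CPM ± 47.4 in 3T3-L1 control, against 28.9 ± 11.6 in M27H4 control and 11.7 ± 1.58 in M6 control (3.03, adjusted p = 0.000243), the same direction as its partner in the stress response, Ddit3.

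Srebf1, which switches on fatty acid synthesis, averaged 53.3 CPM ± 2.1 (SD, n = 2) in 3T3-L1 control, against 227.2 ± 53.5 (n = 3) in M27H4 control and 153.5 ± 2.92 (n = 2) in M6 control, a log2 difference of -1.81 (adjusted p = 5.70e-06). Bscl2, the gene of seipin, which is needed for droplet formation, averaged 5.45 CPM ± 0.376 in 3T3-L1 control, against 27.2 ± 0.978 in M27H4 control and 12.6 ± 0.578 in M6 control (-1.76, adjusted p = 3.18e-06). Both were lower in 3T3-L1, like Gpd1 and Lpin1. Insr, the insulin receptor, was also lower (52.1 CPM ± 5.02 in 3T3-L1 control, against 93.1 ± 11 in M27H4 control and 94.8 ± 44.5 in M6 control, -0.85, adjusted p = 0.0109). Other lipid genes went the other way. Gpam averaged 34.5 CPM ± 4.33 in 3T3-L1 control, against 11.9 ± 2.84 in M27H4 control and 27.7 ± 1.1 in M6 control. Gpat3 averaged 23.5 ± 6.42, 12.1 ± 2.1 and 12.5 ± 1.48 CPM in that order. Of 14 tested genes of fatty acid and glycerol handling, 4 were called higher and 5 lower than the tumour mean, beside 22.1% and 18.7% of all genes.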
